A study of Mus musculus with 12 samples.

Results

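The 35 transcripts described here encode the calcium-handling machinery of the cell: voltage-gated calcium channels, calcium pumps, sodium-calcium exchangers, the release channels and calcium sensors of the endoplasmic reticulum, and soluble calcium buffers and sensors. They were chosen by function, as a list of gene symbols, and each symbol was matched to its Ensembl identifier among the 55385 genes of the deposited count table. All 35 were found, and all 35 were among the 15905 genes abundant enough to be tested. The series measured RNA in the freshly dissected hippocampus of adult mice of 4 genotypes with 3 libraries each: WT, Kcnip3 KO (Kcnip3-/-), 5xFAD, and Kcnip3 KO-5xFAD, which carries both. Kcnip3 encodes KChIP3, known too as calsenilin and DREAM, which binds calcium, acts on Kv4 potassium channels and can repress transcription, and the study asked about its part in Alzheimer's disease. 5xFAD is a transgenic model in which Thy1 promoter sequences drive mutant human transgenes in neurons, so amyloid forms from overexpressed transgenes and not from endogenous genes. The tissue was the hemisphere opposite to one used for proteomics. The labels do not say that the libraries of a group came from separate animals, and p-values measure the spread between these libraries, which may be technical.

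A voltage-gated calcium channel consists of a pore-forming subunit that sets its current type, together with auxiliary beta and alpha2delta subunits that carry it to the membrane and adjust its gating. In hippocampal neurons these channels trigger transmitter release and dendritic calcium signals. Pumps of the plasma membrane and sodium-calcium exchangers then clear calcium from the cytosol, pumps of the endoplasmic reticulum refill the internal store, and ryanodine and inositol trisphosphate receptors release it again. STIM proteins sense an empty store, while calmodulin, calbindin and hippocalcin bind calcium in the cytosol.

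Each library held 7664407 to 11310714 counts, and the 35 genes took 0.813% to 1.04% of them. Levels are given as CPM, a gene's share of its library's counts after scaling by the TMM method. Kcnip3 was at 137.7 to 161.7 CPM in the 6 libraries labelled as intact and at 63.4 to 125.2 CPM in the 6 labelled as knockout, the highest of these in the library labelled Kcnip3 KO 3. Thy1, which the transgene promoter comes from, went against the label in 2 libraries: it was at 2276.9 CPM in the library labelled WT 3 and at 926.2 CPM in the library labelled Kcnip3 KO-5xFAD 2, against 746.9 to 886.6 CPM in the other libraries labelled without transgenes and 2592.4 to 4236.4 CPM in the other libraries labelled with them. The genes called and the leading values of each comparison are also given without these libraries. The counts of members without overlap were recomputed without them for 5xFAD against WT alone. Markers of dentate granule cells and of CA1 and CA2 to CA3 pyramidal cells were present, and none of them was at 0 in every library. A bulk measurement cannot tell fewer cells of a type from less RNA per cell.

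Set out by TPM, a level per transcript length in which each library sums to a fixed total, the 35 genes spanned a wide range in WT. The highest were the calmodulin genes Calm2, at 3259.7 ± 140.0 TPM (SD, n = 3), and Calm3, at 2740.2 ± 243.8 TPM, followed by Hpca, the neuronal calcium sensor hippocalcin, at 1084.0 ± 306.1 TPM. Cacnb3, a beta subunit, the reticulum pump gene Atp2a2 and the exchanger gene Slc8a2 came next, at 309.4 ± 19.0, 269.1 ± 34.4 and 245.0 ± 38.6 TPM. The WT libraries of these neighbours overlapped for Cacnb3 with Atp2a2 and for Atp2a2 with Slc8a2. Of the pore-forming subunits, Cacna1h, a T-type channel, had the highest mean at 43.2 ± 3.50 TPM, and Cacna1c, the main L-type channel of the brain, the lowest at 10.5 ± 0.967 TPM, next to the second L-type gene Cacna1d at 10.6 ± 1.76 TPM. Their order depends on the length that each level is divided by, which was not given in the sources used here. By CPM the highest WT mean of these subunits was that of Cacna1e, at 227.1, and the lowest that of Cacna1d, at 47.6. The lowest levels belonged to release channels: Itpr3, Ryr3, Ryr1 and Itpr2 lay between 3.69 ± 0.136 and 4.22 ± 0.509 TPM, whereas Itpr1, the main inositol trisphosphate receptor of neurons, was at 37.2 ± 5.71 and Ryr2 at 14.1 ± 1.17 TPM.

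**Figure D1:**
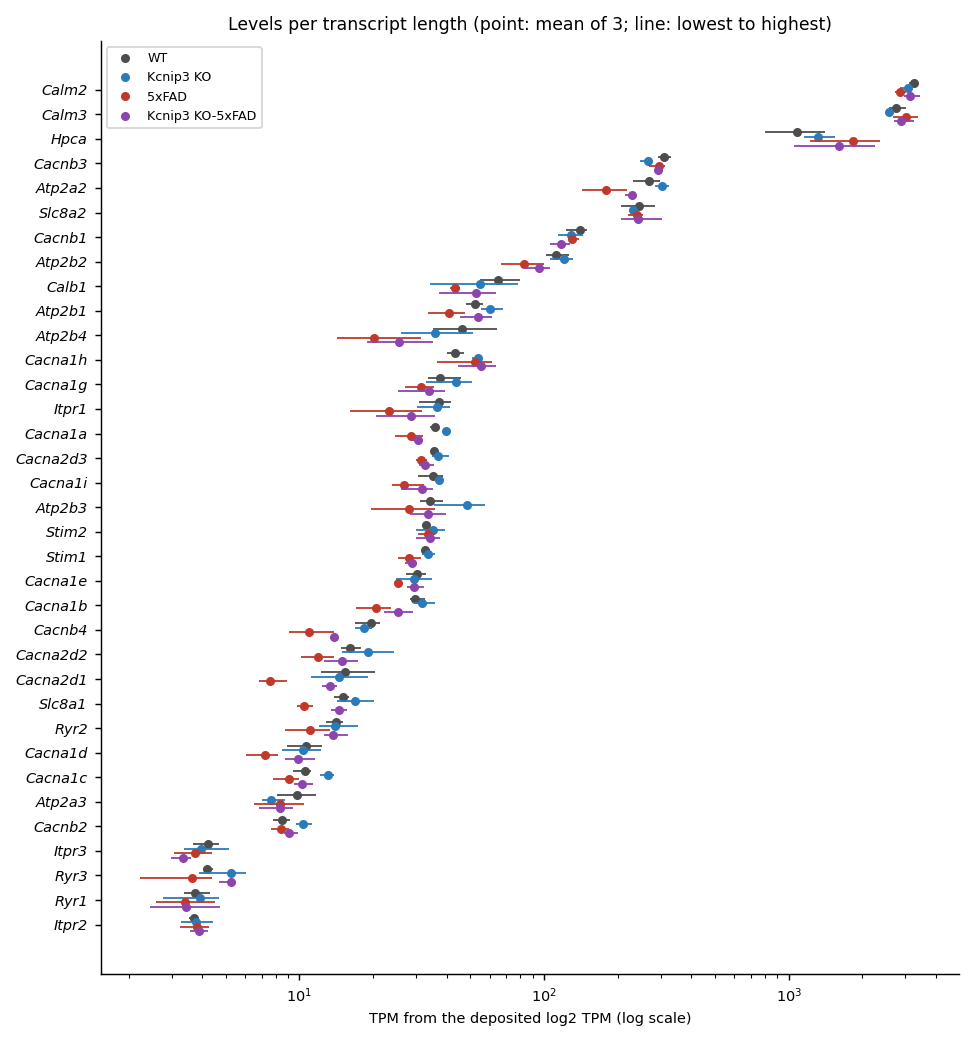
Level per transcript length of the 35 calcium-handling genes, in TPM on a log axis, sorted by the WT mean. Points are means of 3 libraries and lines run from the lowest to the highest library of each genotype; WT means span 3.69 TPM (Itpr2) to 3259.7 TPM (Calm2).

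The comparison of 5xFAD with WT asks what the transgenes change where Kcnip3 is intact. Of the 35 genes 3 passed, and all of them fell: Cacnb4 and Cacna2d1, auxiliary subunits of voltage-gated channels, and Atp2a2, the pump that refills the endoplasmic reticulum. Across all genes tested, 1.62% were called lower and 1.91% higher at an adjusted p under 0.05 in edgeR's quasi-likelihood test with Benjamini-Hochberg adjustment, against 3 of the 35 genes lower and 0 higher. At an unadjusted p under 0.05, 10 members were lower and 1 was higher, beside 12.9% and 12.4% of all genes. The median log2 fold change of the 35 genes was -0.11, and that of all tested genes was 0.01. By group means, 25 of the 35 were lower in 5xFAD, beside 48.3% of all genes. In the deposited log2 TPM values, where the median of all genes was itself at -0.13, 30 of the 35 were lower with a median of -0.26. With a correction of each library for transcript length and GC content, 21 of the 35 were lower with a median of -0.06. With DESeq2 5 members were called, all lower, Cacna1b and Slc8a1 being added, beside 4.80% of all genes lower and 4.19% higher.

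Among the pore-forming subunits, 7 of 8 had a lower mean in 5xFAD and none passed the test, with log2 fold changes from -0.42 to 0.44 and a median of -0.16. Cacna1b encodes the N-type channel of presynaptic terminals. It was at 83.4, 86.5 and 93.6 CPM in the WT libraries, 71.8, 59.8 and 68.4 in 5xFAD, 102.8, 84.7 and 94.1 in Kcnip3 KO and 75.0, 70.6 and 87.3 in Kcnip3 KO-5xFAD. The 5xFAD libraries lay below all WT libraries, with a log2 fold change of -0.40 ± 0.11 (SE) and an adjusted p of 0.0573 in edgeR's quasi-likelihood test. Cacna1d encodes an L-type channel that opens at relatively negative voltages. Its levels were 47.3, 41.0 and 54.5 CPM in WT, 37.7, 32.5 and 36.5 in 5xFAD, 54.0, 44.2 and 39.9 in Kcnip3 KO and 54.0, 42.3 and 42.0 in Kcnip3 KO-5xFAD. The 5xFAD libraries were the lowest of the 12, and the adjusted p of edgeR was 0.0972 for a log2 fold change of -0.42 ± 0.14. The P/Q-type gene Cacna1a (-0.20), the T-type gene Cacna1i (-0.26) and, near 0, the T-type gene Cacna1g (-0.13), the R-type gene Cacna1e (-0.11) and Cacna1c (-0.08) made up the other lower means. Cacna1h was the exception at 0.44 ± 0.21 (adjusted p = 0.211, edgeR), with 109.1 CPM in the library labelled 5xFAD 1, below all WT libraries, and 206.8 and 193.2 CPM in the others, above them.

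Of the 7 auxiliary subunits, 4 were lower in mean in 5xFAD, and 2 of these passed. Cacnb4 (ENSMUSG00000017412, GRCm38 chromosome 2, 52428320 to 52676831, minus strand) encodes the beta subunit whose loss causes ataxia and seizures in mice. It was at 56.5, 45.7 and 53.4 CPM in WT, 37.7, 28.6 and 28.6 in 5xFAD, and at 51.1, 43.9 and 51.7 in Kcnip3 KO and 38.1, 39.3 and 37.1 in Kcnip3 KO-5xFAD. Every library labelled with the transgenes lay below every library labelled without them. The mean fell from 51.9 ± 5.53 to 31.7 ± 5.25 CPM (SD, n = 3), a log2 fold change of -0.71 ± 0.13 with an adjusted p of 0.0216 in edgeR's quasi-likelihood test. Leaving out WT 3 and Kcnip3 KO-5xFAD 2, an omission decided on once their Thy1 levels were known, it was -0.69 ± 0.15 with an adjusted p of 0.0391.

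Cacna2d1 (ENSMUSG00000040118, chromosome 5, 15934691 to 16374511, plus strand) encodes the alpha2delta subunit that binds gabapentin and promotes the surface delivery of channels. It was at 49.8, 46.5 and 72.7 CPM in WT, 33.7, 29.9 and 28.2 in 5xFAD, 68.5, 39.7 and 51.4 in Kcnip3 KO and 47.1, 52.0 and 53.5 in Kcnip3 KO-5xFAD. The 5xFAD libraries were the 3 lowest of the 12, and the library labelled WT 3 was the highest. The mean fell from 56.3 ± 14.3 to 30.6 ± 2.77 CPM, a log2 fold change of -0.88 ± 0.19 with an adjusted p of 0.0357 (edgeR). With WT 3 and Kcnip3 KO-5xFAD 2 left out it no longer passed, at -0.65 ± 0.18 and an adjusted p of 0.130. The other alpha2delta genes, Cacna2d2 (-0.30) and Cacna2d3 (-0.04), and the beta genes Cacnb1 (0.04), Cacnb2 (0.12) and Cacnb3 (0.07) did not pass, and the last group lay within 0.12 of no change on the log2 scale.

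Because DREAM is known to bind sites with a GTCA core, the sequence before the start of Cacna2d1, the member with the lowest p when Kcnip3 KO-5xFAD was compared with 5xFAD, is shown. It is the 250 bases upstream of the RefSeq start on GRCm38.p6, chr5:15934441-15934690, plus strand, 82.4% GC, with the only match to GTCA (here as its reverse complement) in capitals.
Cacna2d1: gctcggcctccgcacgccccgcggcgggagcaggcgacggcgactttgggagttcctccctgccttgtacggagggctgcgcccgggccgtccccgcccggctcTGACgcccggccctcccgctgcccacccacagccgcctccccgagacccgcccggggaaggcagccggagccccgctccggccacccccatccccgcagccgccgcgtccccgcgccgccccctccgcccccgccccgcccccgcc
In the 250 bases before the start, GTCA on either strand was found in 80.2% of the 32851 RefSeq promoter windows of all genes. It was found in 24 of the 39 windows of the 26 members that have one. The longer cAMP response element TGACGTCA was in 1.5% of all windows and in 0 of the 39. Such a match is a description of the letters and not a binding site.

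All 6 pump genes were lower in mean in 5xFAD, and 1 of them passed. Atp2a2 (ENSMUSG00000029467, chromosome 5, 122453513 to 122502225, minus strand) encodes SERCA2, the calcium pump of the endoplasmic reticulum in neurons. It was at 535.9, 427.4 and 493.3 CPM in WT, 404.4, 309.1 and 351.6 in 5xFAD, 570.6, 533.2 and 540.9 in Kcnip3 KO and 400.7, 456.7 and 437.0 in Kcnip3 KO-5xFAD. The 5xFAD libraries lay below all WT libraries, and the Kcnip3 KO-5xFAD libraries below all Kcnip3 KO libraries. The mean fell from 485.5 ± 54.7 to 355.1 ± 47.7 CPM (SD, n = 3), a log2 fold change of -0.45 ± 0.11 with an adjusted p of 0.0460 in edgeR's quasi-likelihood test. Leaving out WT 3 and Kcnip3 KO-5xFAD 2, it was -0.44 ± 0.14 with an adjusted p of 0.164.

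Atp2b4, a plasma-membrane pump, had the largest fold change of the 35 genes in size and also a wide spread. Its levels were 127.9, 146.0 and 227.3 CPM in WT, 117.1, 62.1 and 57.9 in 5xFAD, 182.2, 105.6 and 98.6 in Kcnip3 KO and 84.2, 74.6 and 129.7 in Kcnip3 KO-5xFAD. The groups did not overlap, but the library labelled 5xFAD 1 was close to the lowest WT library and WT 3 was the highest of all. The log2 fold change was -1.08 ± 0.37 and the adjusted p was 0.11 (edgeR), and with WT 3 and Kcnip3 KO-5xFAD 2 left out they were -0.80 ± 0.38 and 0.376. The other plasma-membrane pumps gave -0.31 (Atp2b2), -0.23 (Atp2b1) and -0.16 (Atp2b3), and the second reticulum pump Atp2a3, a low transcript at 15.1 ± 3.28 CPM in WT, gave -0.09.

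The exchangers differed from each other in sign. Slc8a1 encodes the sodium-calcium exchanger NCX1. It was at 85.0, 79.1 and 86.4 CPM in WT, 65.3, 64.8 and 61.2 in 5xFAD, 109.8, 77.7 and 95.1 in Kcnip3 KO and 90.7, 81.9 and 81.5 in Kcnip3 KO-5xFAD. The 5xFAD libraries were close together and below all 9 others, and the log2 fold change of -0.39 ± 0.11 had an adjusted p of 0.0654 (edgeR). Slc8a2, encoding the brain exchanger NCX2, was at 323.2, 455.6 and 371.7 CPM in WT, 356.5, 474.8 and 421.6 in 5xFAD, 352.8, 362.3 and 371.4 in Kcnip3 KO and 333.4, 514.6 and 346.7 in Kcnip3 KO-5xFAD. These groups overlapped throughout (0.12 ± 0.17, adjusted p = 0.670, edgeR).

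None of the 6 release channels passed, and 4 had a lower mean in 5xFAD. Itpr1 was at 213.7, 171.4 and 220.5 CPM in WT, 177.9, 104.9 and 131.1 in 5xFAD, 218.7, 203.4 and 172.6 in Kcnip3 KO and 116.1, 174.0 and 198.3 in Kcnip3 KO-5xFAD. The library labelled 5xFAD 1 lay above the lowest WT library, and the log2 fold change of -0.55 ± 0.21 had an adjusted p of 0.134 (edgeR). Ryr2, the main ryanodine receptor of the hippocampus, was at 122.3, 112.4 and 126.1 CPM in WT, 117.2, 89.1 and 103.2 in 5xFAD, 144.5, 106.7 and 107.7 in Kcnip3 KO and 113.0, 146.7 and 109.3 in Kcnip3 KO-5xFAD, with overlapping groups (-0.22 ± 0.14, adjusted p = 0.352, edgeR). Itpr2, the receptor isoform of astrocytes, gave 0.18, and Ryr1, Ryr3 and Itpr3 gave 0.03, -0.08 and -0.03.

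Neither store sensor gene passed. Stim1 was at 98.2, 100.1 and 102.7 CPM in WT, 99.6, 93.2 and 91.6 in 5xFAD, 99.6, 108.2 and 102.2 in Kcnip3 KO and 96.6, 90.1 and 91.6 in Kcnip3 KO-5xFAD, and its log2 fold change in 5xFAD was -0.08 ± 0.08 with a 95% interval from -0.25 to 0.09. Stim2, the neuronal form, was at 52.4, 50.5 and 47.1 CPM in WT, 55.9, 55.3 and 56.8 in 5xFAD, 58.6, 44.7 and 57.8 in Kcnip3 KO and 54.9, 62.0 and 46.4 in Kcnip3 KO-5xFAD. Its 5xFAD libraries all lay above the WT libraries, by a small amount that did not pass (0.16 ± 0.12, adjusted p = 0.420, edgeR).

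Among the buffers and sensors, 2 of 4 had a higher mean in 5xFAD and none passed. Hpca was at 905.6, 1254.4 and 677.8 CPM in WT, 1090.5, 2454.3 and 1829.8 in 5xFAD, 977.5, 1066.6 and 1412.3 in Kcnip3 KO and 1379.5, 2131.5 and 926.3 in Kcnip3 KO-5xFAD. The libraries of a group differed from each other by more than for most members, and the log2 fold change of 0.92 ± 0.36 had an adjusted p of 0.149 (edgeR). Leaving out WT 3 and Kcnip3 KO-5xFAD 2, it was 0.73 ± 0.33 with an adjusted p of 0.341. Sums of some neuronal markers were also higher in 5xFAD. The summed level of 5 dentate granule markers was 47.3 to 93.2 CPM in WT and 102.5 to 179.1 CPM in 5xFAD. That of 4 CA1 pyramidal markers was 286.9 to 429.8 and 387.5 to 578.1 CPM, although 1 of the 4 was lower in mean. Other neuronal markers went the other way, with 4 of 6 interneuron markers and 5 of 6 general neuronal markers lower in mean. The lowest Hpca level and the lowest dentate sum were both in the library labelled WT 3, and the part of such markers in the result was not tested. Calm3 was at 1859.6, 2231.6 and 1837.7 CPM in WT, 1976.6, 2907.1 and 2364.8 in 5xFAD, 1753.7, 1863.4 and 1953.1 in Kcnip3 KO and 2029.9, 2539.1 and 1979.8 in Kcnip3 KO-5xFAD. Its groups overlapped (0.29 ± 0.15, adjusted p = 0.227, edgeR), as did those of Calm2 (-0.05). Calb1, the calbindin of dentate and CA1 neurons, was lower in every 5xFAD library than in every WT library without passing (-0.43 ± 0.26, adjusted p = 0.325, edgeR).

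Calm2 and Calm3 encode the same protein, and counts for such genes are only meaningful if reads can be told apart. The first 90 bases of a 450-base coding sequence from GENCODE M21 transcripts of each gene show how far they differ. The 15 differing bases are in capitals.
Calm2: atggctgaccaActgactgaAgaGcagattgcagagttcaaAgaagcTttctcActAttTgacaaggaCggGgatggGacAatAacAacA
Calm3: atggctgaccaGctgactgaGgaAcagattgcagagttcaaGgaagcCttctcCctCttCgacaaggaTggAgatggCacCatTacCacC
Over the 450 coding bases the pair were 82.7% identical, while 0 of the 149 encoded residues differed. Between the longest protein-coding transcripts of the pair, untranslated parts included, the longest shared run was 17 bases.

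**Figure D2:**
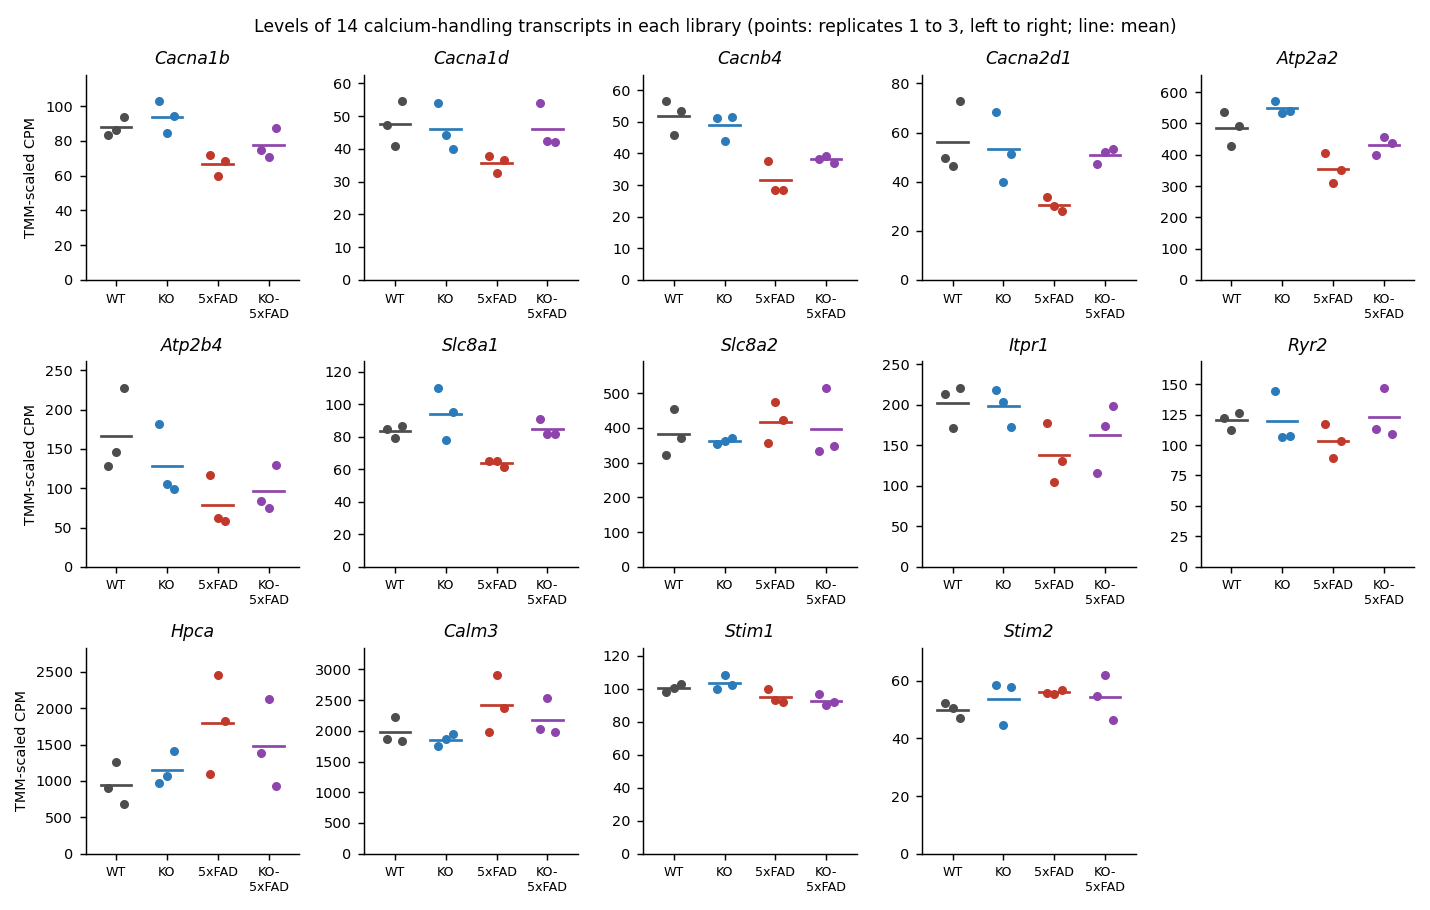
Level of 14 calcium-handling transcripts in each library, in TMM-scaled CPM on axes that start at 0; points are replicates 1 to 3 of each genotype and lines their mean. The 5xFAD libraries of Cacnb4, Cacna2d1 and Atp2a2 all lie below the WT libraries, while those of Slc8a2 and Ryr2 overlap them.

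Libraries of 5xFAD and WT did not overlap for 14 members. In 12 members all 5xFAD libraries were lower, beside 13.9% of all genes: Cacna1a, Cacna1b, Cacna1d, Cacnb4, Cacna2d1, Cacna2d2, Atp2a2, Atp2b1, Atp2b2, Atp2b4, Slc8a1 and Calb1. In 2 members, Itpr2 and Stim2, all were higher, beside 13.7% of all genes. The lower members were 3 pore-forming subunits, 3 auxiliary subunits, 4 pumps, 1 exchanger and Calb1. Of the genes of the internal store only Atp2a2 was among them, and none of the release channels or store sensors. With WT 3 left out, the same 12 members were lower without overlap and the same 2 higher, beside 16.5% and 16.3% of all genes. Leaving out a library cannot make separate groups overlap, so this is no check of these members.

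Cell-type markers and library composition differed between the same groups. The summed level of 6 general neuronal markers was 3951.5 to 4157.3 CPM in WT and 3138.0 to 3393.2 CPM in 5xFAD, with 5 of the 6 lower in mean. That of 6 microglial markers was 230.4 to 362.3 and 601.5 to 736.5 CPM, and that of 6 astrocyte markers 2774.4 to 3525.2 and 4767.0 to 5211.9 CPM, although 3 of the 6 were lower in mean. The sum of 6 oligodendrocyte markers was 3205.4 to 5401.1 CPM in WT and 5476.9 to 7653.4 CPM in 5xFAD. For 5 markers of the choroid plexus it was 8946.3 CPM in the library labelled 5xFAD 3, 220.2 in 5xFAD 2 and 99.9 in WT 3. Markers of cortical layers, which neighbouring tissue would carry, summed to 163.6 to 170.0 CPM in WT and 105.7 to 160.5 CPM in 5xFAD. The mitochondrial share of counts was 3.84% to 5.10% in WT and 3.58% to 3.74% in 5xFAD. The part of any of these in the lower calcium transcripts was not tested.

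Transcript composition moved with the calls. Calcium-channel and pump transcripts are long: the median exonic length of the 35 genes was 9942 bases, against 4234.5 for all tested genes, while their median GC content was 50.3% against 49.9%. Relative to the mean of all libraries, genes of the highest GC quartile were above those of the lowest by 0.47 (log2) in the library labelled 5xFAD 2, 0.29 in 5xFAD 3 and 0.07 in 5xFAD 1, and between -0.30 and 0.08 in the other 9. In 5xFAD against WT, the median log2 fold change of all genes went from -0.22 in the lowest GC quartile to 0.18 in the highest. Cacnb4 and Cacna2d1, at 40.5% and 40.7% GC, were in that lowest quartile, where 4.55% of all genes and 2 of 7 members were called lower. Across the 35 genes, Spearman's rho between fold change and GC was 0.47, and across all tested genes it was 0.42. These are descriptions across genes that share libraries, and genes are not independent replicates.

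With a correction of each library for transcript length and GC, 0 members passed edgeR's test in 5xFAD against WT, beside 0.302% of all genes called lower and 0.572% higher. At an unadjusted p under 0.05, 10 members were then lower and 3 higher, beside 8.75% and 8.98% of all genes. Cacnb4 was then at -0.39 ± 0.10 (adjusted p = 0.0596), Cacna2d1 at -0.52 ± 0.15 (adjusted p = 0.105) and Atp2a2 at -0.39 ± 0.10 (adjusted p = 0.0607). Cacna1b was at -0.37 ± 0.10 (adjusted p = 0.0670, edgeR). Slc8a1, at 40.2% GC, went from -0.39 to 0.02, Calb1, at 36.8%, from -0.43 to -0.05, and Cacnb2, at 39.0%, from 0.12 to 0.53 ± 0.13 (adjusted p = 0.0592, edgeR). Cacna1c went from -0.08 to 0.07 and Cacna1e from -0.11 to 0.10. The pumps were lower in 5 of 6 cases with the correction, Atp2b1 being the exception, and the pore-forming subunits in 5 of 8.

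**Figure D3:**
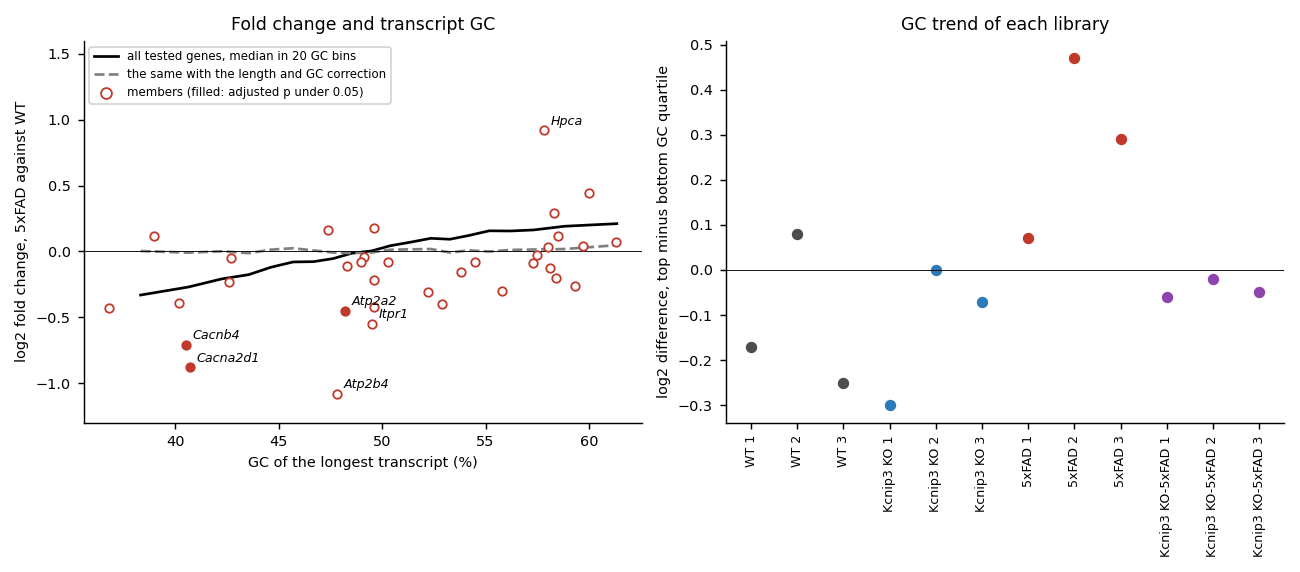
Left, log2 fold change of 5xFAD against WT by the GC content of the longest transcript for the 35 members (points, filled where the adjusted p is under 0.05) and as the median of all tested genes in 20 GC bins, before (solid) and after (dashed) the length and GC correction. Right, the difference between the top and bottom GC quartile in each library (log2), highest at 0.47 in the library labelled 5xFAD 2.

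Which libraries were included also decided the calls. Leaving out the library labelled WT 1, WT 3, 5xFAD 2 or 5xFAD 3 left 0 members called in 5xFAD against WT, and leaving out 5xFAD 1 gave 7. The counts over all genes, 304 higher and 258 lower with every library, moved too: to 1 and 0 without WT 1, 5xFAD 2 or 5xFAD 3, to 12 and 1 without WT 3, and to 939 and 1178 without 5xFAD 1. Leaving out Kcnip3 KO-5xFAD 3, a library of neither group compared here, gave 1 member, with 143 genes higher and 89 lower of 16190 tested. Such a library enters through the shared spread, the filter and the scaling. When WT 3 and Kcnip3 KO-5xFAD 2 were both left out, 1 member was called, Cacnb4, beside 0.0809% of all genes called lower and 1.22% higher. By unadjusted p under 0.05, 7 members were then lower and 0 higher, beside 7.08% and 7.71% of all genes. Over the 23 settings other than the added omissions, Cacnb4 ranged from -0.86 to -0.39 on the log2 scale. Cacna2d1 ranged from -1.01 to -0.51 and Atp2a2 from -0.60 to -0.37. The genes were called in 17, 16 and 12 of these settings, in that order. Their 5xFAD and WT libraries did not overlap, so leaving out a library could hardly change the sign, which gives the direction no further support.

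**Figure D4:**
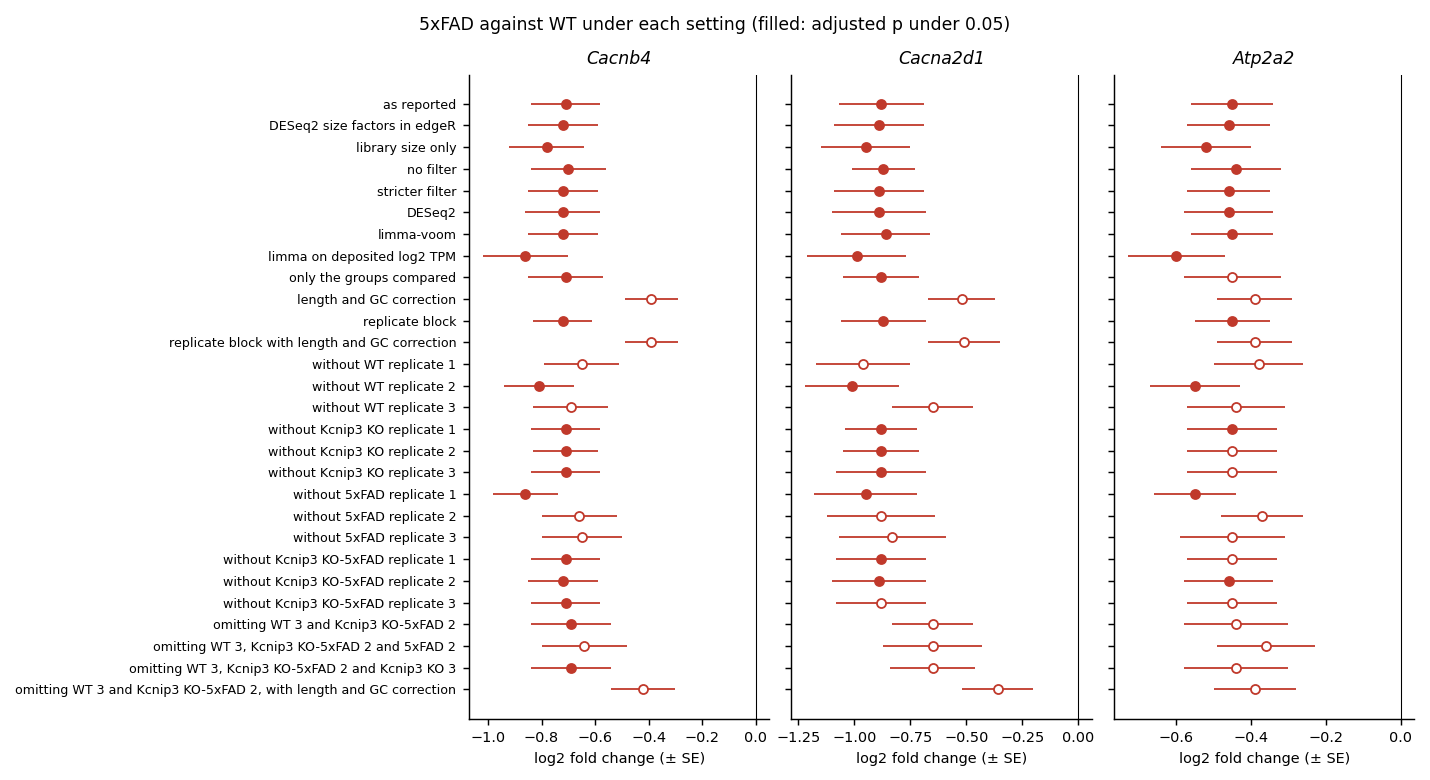
Log2 fold change (± SE) of Cacnb4, Cacna2d1 and Atp2a2 in 5xFAD against WT as reported and under each other setting, filled where the adjusted p is under 0.05. All points lie below 0; Cacnb4 ranges from -0.86 to -0.39, Cacna2d1 from -1.01 to -0.36 and Atp2a2 from -0.60 to -0.36.

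The same transgene effect can be read where Kcnip3 is disrupted, from Kcnip3 KO-5xFAD against Kcnip3 KO. This comparison shares no library with the one above but includes the libraries labelled Kcnip3 KO-5xFAD 2 and Kcnip3 KO 3. No member passed edgeR's test, beside 0% of all genes called in either direction. At an unadjusted p under 0.05, 6 members were lower, beside 4.33% of all genes, and 0 were higher, beside 6.09%. They were Cacna1a (-0.32 ± 0.08, adjusted p = 0.251, edgeR), Atp2a2 (-0.35 ± 0.11, 0.316), Cacnb4 (-0.36 ± 0.12, 0.351), Cacna1c (-0.30), Atp2b3 (-0.47) and Cacna1b (-0.28). DESeq2 called 1 member, Cacna1a, which was lower, beside 0.151% of all genes lower and 0.698% higher. When WT 3 and Kcnip3 KO-5xFAD 2 were left out, 0 members passed edgeR's test, beside 1.29% of all genes called higher and 0.00622% lower. At an unadjusted p under 0.05, 6 members were lower and 0 higher, beside 2.58% and 5.82% of all genes, with Cacna1a at -0.30, Cacnb4 at -0.38 and Atp2a2 at -0.39. With Kcnip3 KO 3 left out as well, 4 members were lower and 0 higher by this rule, beside 1235 of 16083 genes in either direction. The presynaptic P/Q-type gene Cacna1a had 139.2, 143.9 and 151.7 CPM in Kcnip3 KO, against 118.3, 113.5 and 117.3 in Kcnip3 KO-5xFAD, with a narrow spread in both groups. Libraries did not overlap for 4 members that were lower, Cacna1a, Cacnb4, Atp2a2 and Stim1, beside 7.25% of all genes, and for 2 that were higher, Cacnb3 and Calm3, beside 8.37%.

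Side by side, 18 of the 35 genes, or 51.4%, had a lower mean with the transgenes in both of these comparisons, against 33.3% of all tested genes. Leaving out WT 3 and Kcnip3 KO-5xFAD 2, 24 of the 35 were lower in both, against 31.9% of all genes. With every library included, those higher in both were 7, against 34.8% of all genes, and 10 had opposite signs. The pumps were lower in 5 of 6 cases in Kcnip3 KO-5xFAD, with Atp2a3 at 0.18, and the auxiliary subunits in 6 of 7. Cacnb4 (-0.71 and -0.36) and Atp2a2 (-0.45 and -0.35) were lower in both. Cacna2d1 was at -0.88 in the one and at -0.07 ± 0.19 in the other, where its 95% interval ran from -0.48 to 0.34. Cacna1d gave -0.42 and 0.00, and Calb1 -0.43 and 0.02.

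**Figure D5:**
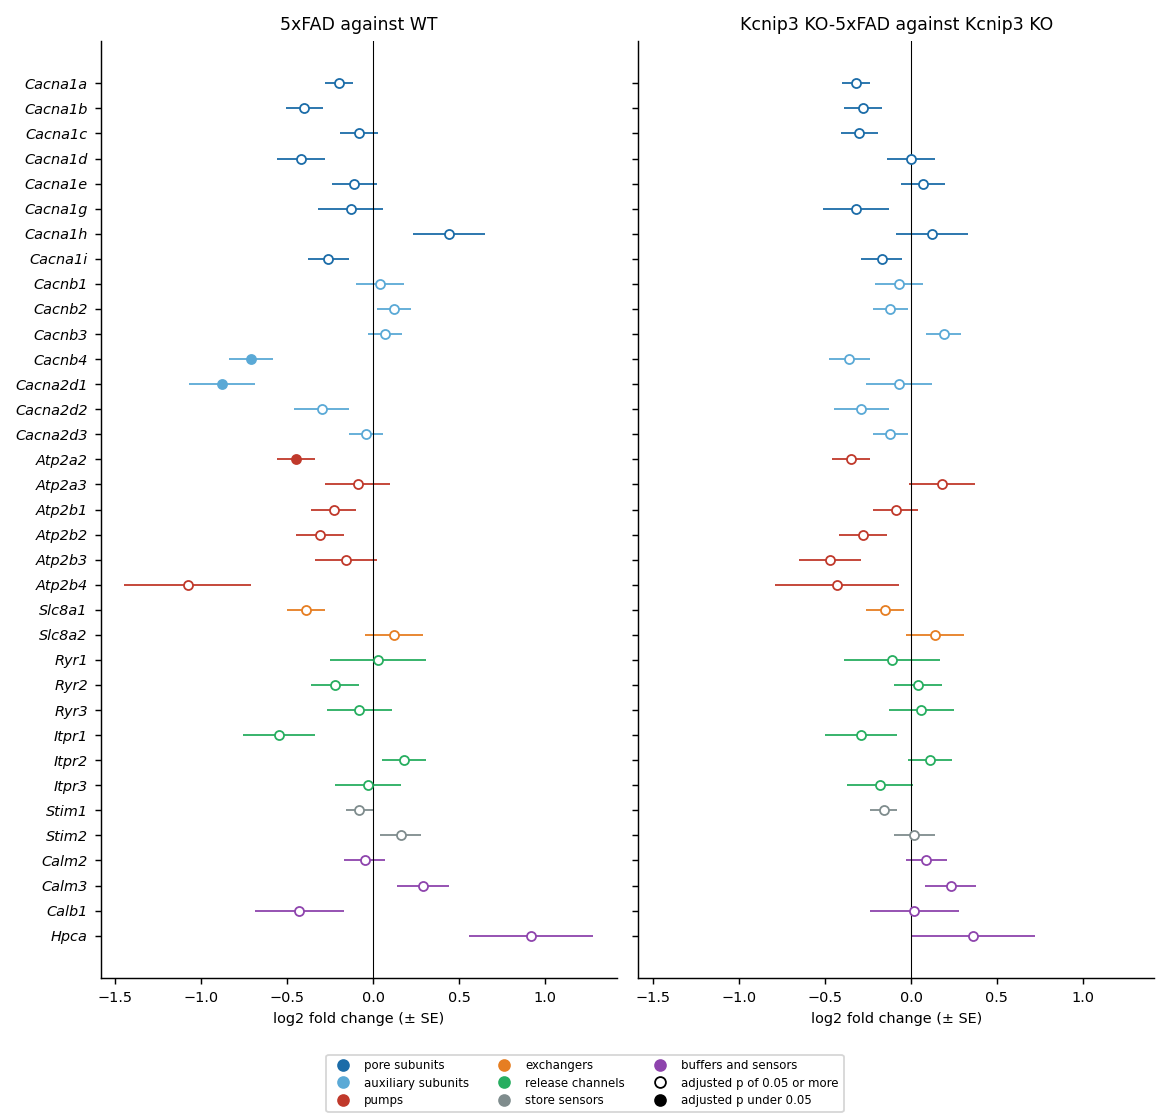
Log2 fold change (± SE) of the 35 genes, coloured by role, in 5xFAD against WT (left) and Kcnip3 KO-5xFAD against Kcnip3 KO (right), comparisons that share no library. Filled points passed an adjusted p of 0.05 in edgeR's test; Cacna2d1 is at -0.88 on the left and -0.07 on the right, and Cacnb4 and Atp2a2 are below 0 on both sides.

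Whether the 5xFAD effect depends on Kcnip3 is tested by the interaction, the difference between these effects. No member passed it, beside 0% of all genes, and 1 had an unadjusted p under 0.05, beside 3.48% of all genes higher and 1.78% lower. That member was Cacna2d1, with an interaction of 0.81 ± 0.27 on the log2 scale, a 95% interval from 0.23 to 1.40, an unadjusted p of 0.00998 and an adjusted p of 0.853 in edgeR's quasi-likelihood test. With the length and GC correction it was 0.54 ± 0.22, and with WT 3 and Kcnip3 KO-5xFAD 2 left out it was 0.57. When Kcnip3 KO 3 was left out as well, 0 members had an unadjusted p under 0.05 in edgeR's test, beside 474 of 16083 genes. With 5xFAD 2 as the third library left out, it was again 0 members, beside 487 of 16076 genes. DESeq2 called 0 members, beside 5 genes higher and 1 lower of 15905. For most members the intervals were wide with 3 libraries a group, as for Atp2a2 (0.11, from -0.24 to 0.45) and Cacnb4 (0.36, from -0.02 to 0.73). Differences within such an interval are not excluded.

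Kcnip3 KO-5xFAD against 5xFAD compares the presence and absence of Kcnip3 among libraries labelled with the transgenes. It uses the same 5xFAD libraries as the first comparison, so that opposite signs in the 2 comparisons follow in part from that sharing. No member passed edgeR's test, beside 0.0314% of all genes called higher and 0.0377% lower. DESeq2 called 0 members, beside 16 genes higher and 13 lower of 15905. The 7 members with an unadjusted p under 0.05 were all higher, beside 6.44% of all genes higher and 3.92% lower: Cacna2d1 (0.73 ± 0.20, adjusted p = 0.411, edgeR), Slc8a1 (0.41 ± 0.11, 0.411), Ryr3 (0.47), Cacna1d (0.37), Atp2b1 (0.33), Atp2a2 (0.28) and Cacnb4 (0.27). Ryr3, a ryanodine receptor isoform of hippocampal neurons, had 25.4, 14.7 and 25.8 CPM in 5xFAD, against 27.2, 33.6 and 31.3 in Kcnip3 KO-5xFAD. Libraries did not overlap for 4 members that were higher, Cacna1d, Cacna2d1, Slc8a1 and Ryr3, beside 9.05% of all genes, and for 1 that was lower, Itpr3, beside 7.29%. The GC trend ran the other way here, with a Spearman's rho between fold change and GC of -0.63 across the 35 genes and -0.48 across all genes. After the correction Slc8a1 was at 0.08, Cacnb4 at 0.02, Atp2b1 at 0.08 and Cacna2d1 at 0.45 ± 0.16 (adjusted p = 0.817, edgeR). Ryr3 was at 0.34 ± 0.15, Cacna1d at 0.27 ± 0.13 and Atp2a2 at 0.23 ± 0.10, with unadjusted p-values of 0.0410, 0.0481 and 0.0326 and adjusted ones of 0.839, 0.839 and 0.828 (edgeR). Cacnb2 was then at -0.30 ± 0.13, with an unadjusted p of 0.0368 and an adjusted p of 0.831 (edgeR). When WT 3 and Kcnip3 KO-5xFAD 2 were left out, 0 members passed, beside 0.0311% of all genes called higher and 0.00622% lower. Then 4 members were higher and 0 lower at an unadjusted p under 0.05, beside 5.62% and 3.65% of all genes, and Cacna2d1 was at 0.72.

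Kcnip3 KO against WT compares the presence and absence of Kcnip3 among libraries labelled without the transgenes, with the libraries labelled WT 3 and Kcnip3 KO 3 among them. No member passed edgeR's test, beside 0.0251% of all genes called in each direction. DESeq2 called 0 members, beside 9 genes higher and 20 lower of 15905. At an unadjusted p under 0.05, 3 members were higher, beside 2.57% of all genes, and 0 were lower, beside 1.95%. Cacna1c was at 72.3, 62.4 and 69.2 CPM in WT and 84.7, 76.6 and 94.0 in Kcnip3 KO, without overlap (0.32 ± 0.11, unadjusted p = 0.00864 and adjusted p = 0.998, edgeR). The neuronal plasma-membrane pump gene Atp2b3 was at 47.0, 45.4 and 53.9 CPM in WT and 80.2, 73.8 and 53.1 in Kcnip3 KO (0.50 ± 0.18), the last value, within the WT range, being that of the library labelled Kcnip3 KO 3. Cacnb2 gave 0.27 ± 0.10. With the length and GC correction, 1 member was higher and 1 lower at an unadjusted p under 0.05 in edgeR's test. Over all genes it was 704 of 15905 in either direction. These members were Atp2b3 (0.48 ± 0.18) and Atp2a3 (-0.37 ± 0.17), while Cacna1c was at 0.23 ± 0.12 and Cacnb2 at 0.27 ± 0.13. With WT 3, Kcnip3 KO-5xFAD 2 and Kcnip3 KO 3 left out, Cacna1c was at 0.26 and Atp2b3 at 0.74. Libraries did not overlap for 4 members that were higher, Cacna1a, Cacna1c, Cacna1h and Cacnb2, beside 4.58% of all genes, and for 1 that was lower, Cacnb3, beside 4.89%. The genes called in 5xFAD gave -0.08 (Cacnb4), -0.08 (Cacna2d1) and 0.18 (Atp2a2) here.

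Other genes of the same pathways were read from lists chosen by function: 82 genes, of which 79 were tested. In 5xFAD against WT 1 of them passed, and it fell; 36 had a lower and 43 a higher mean, and the median log2 fold change was 0.03. At an unadjusted p under 0.05, 11 were lower and 14 higher, beside 12.9% and 12.4% of all genes. Septin7, a septin of the cell cortex listed for its link to store-operated calcium entry, was at 201.8, 164.6 and 222.3 CPM in WT and 129.8, 88.8 and 109.2 in 5xFAD (-0.84 ± 0.14, adjusted p = 0.0211, edgeR). Its 5xFAD libraries were all below the WT libraries, and with the length and GC correction its value was -0.32 with an adjusted p of 0.0667. Leaving out WT 3 and Kcnip3 KO-5xFAD 2, it was -0.75 ± 0.16 with an adjusted p of 0.0391 (edgeR). In the other lists none passed, and the gene with the smallest p of each is given by value. The leak channel gene Nalcn gave -0.60 and the third exchanger gene Slc8a3 gave -0.47, while Homer3, a scaffold of release channels, gave 1.13, Smdt1, a subunit of the mitochondrial uniporter, 0.39, the lysosomal channel gene Tpcn2 0.45, and S100b, a calcium-binding protein of astrocytes, 0.67. Of the 11 genes of mitochondrial uptake 9 had a higher mean, and of 17 other buffers and sensors 12 had a lower one. None of the 79 passed edgeR's test in the other 4 comparisons. By unadjusted p under 0.05, Kcnip3 KO against WT had 4 of them higher and 0 lower, beside 2.57% and 1.95% of all genes. When Kcnip3 KO-5xFAD was set against 5xFAD, 7 were higher and 2 lower, beside 6.44% and 3.92%. The effect of the transgenes in the knockout had 5 in each direction, beside 6.09% higher and 4.33% lower, and the interaction had 3 higher and 2 lower, beside 3.48% and 1.78%.

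Some members share exonic sequence positions with a gene on the opposite strand, and the strand setting of the counting is not given in the sources used here, so reads of such pairs may not be told apart. Over all 12 libraries Ryr3 held 2833 counts and its opposite neighbour Aven 1244, and Cacna1d held 4721 and Chdh 634. For the members that passed, the neighbours held few counts: Cacnb4 held 4588 against 95 for A430018G15Rik, and Atp2a2 48883 against 1 for Gm43361. Cacna2d1 had no such neighbour. The shared bases and the reads in them were not measured.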

How the data were processed

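RNA of 12 hippocampal libraries, 4 genotypes with 3 each, was read from the deposited raw read counts per gene and the deposited log2 TPM values. The build mm10 and the tools HISAT2 2.1.0, edgeR 3.38.4, R 4.2.1, FastQC 0.11.9 and featureCounts are listed, per the submitters' processing notes, without roles. How the authors set strand, chose an annotation and scaled the log2 TPM values was not given in the sources used here. Groups came from the labels.

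Counts were tested with edgeR 4.0.16 in R 4.3.3: genes were kept by filterByExpr (minimum count 10), scaled by TMM and fitted in 1 quasi-likelihood model of all 12 libraries, with 1 coefficient per genotype. P-values were two-sided and adjusted by the Benjamini-Hochberg method over all 15905 genes tested, and a gene was called at an adjusted p under 0.05. Alternatives used limma 3.58.1 (voom, and trend on log2 TPM), DESeq2 1.42.0, other scalings and filters, the compared groups alone, a smooth correction for transcript length and GC from GENCODE M21 transcripts, the replicate number as a block, and each library left out. Levels in TPM were 2 to the power of the deposited log2 values. Files were read with the R package data.table (1.17.8) and, under Python 3.11.15, pandas 2.3.3, and figures drawn with matplotlib 3.10.9. The test script was tested on simulated data. Genes without a GENCODE M21 entry, 241 in number, held 0.00278% of the counts.

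A total of 7664407 to 11310714 counts per library put 3 counts at 0.265 to 0.391 CPM. Values in every library are given for each member called in any comparison and for the 2 members of each role with the smallest p in 5xFAD against WT; other members are given by value, range or count. Of the other calcium genes, called genes or else the smallest p of each list in 5xFAD against WT are named. The members and lists were chosen with earlier results of these data known. Members beyond this rule with values by library (Cacna1a, Cacna1c, Cacna1h, Atp2b3 and Ryr3) were chosen after their values were seen.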

Additional observations from a re-analysis of the deposited data

How the results depend on the processing

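In 5xFAD against WT 3 members were called. The count was 11 with no filter on low counts (9 lower and 2 higher), 5 with DESeq2, 5 with the replicate block, 0 with the length and GC correction and 0 with the replicate block and that correction together. Leaving out each library in turn gave 0 to 7, and the cause was not tested. Omissions chosen after seeing the data gave 1 when WT 3 and Kcnip3 KO-5xFAD 2 were dropped, 0 when 5xFAD 2 was also left out, 1 when Kcnip3 KO 3 was, and 0 with the length and GC correction. In the same order, all-gene counts higher and lower were 196 and 13, 146 and 2, 203 and 13, and 185 and 9. Between 16076 and 16083 genes were tested in these fits, and few of them were called lower. With no filter the other comparisons called 1 member in Kcnip3 KO against WT (Atp2b3, higher), 1 in Kcnip3 KO-5xFAD against 5xFAD (Cacna2d1, higher), 2 in Kcnip3 KO-5xFAD against Kcnip3 KO (Atp2b3 and Atp2b4, lower) and 2 in the interaction (Cacna2d1 and Atp2b4, higher), and DESeq2 called 1 in Kcnip3 KO-5xFAD against Kcnip3 KO. Over all genes, 5xFAD against WT called 304 higher and 258 lower, against 1136 and 995 with no filter, 667 and 764 with DESeq2 and 632 and 602 with the replicate block. With the length and GC correction these counts were 91 and 48, and with the replicate block as well 122 and 75. With no filter, all-gene counts higher and lower became 203 and 121 in Kcnip3 KO against WT, 200 and 151 with 5xFAD as the base, 419 and 302 with Kcnip3 KO as the base, and 144 and 128 in the interaction, of 31787 genes, from 4 and 4, 5 and 6, 0 and 0, and 0 and 0. The replicate numbers did not pair the libraries: same-number correlations ran from -0.32 to 0.25 over 18 pairs, 6 of them above 0.1, and in 6 of the 18 the first library correlated best with the one of its own number. The 3 members called in 5xFAD against WT kept their sign under every setting run. Their 5xFAD and WT libraries did not overlap, so leaving libraries out could hardly have changed it. Slc8a1, called with DESeq2, the replicate block or no filter, was at 0.02 with the length and GC correction, and Calb1, called with no filter, reached 0.05. Where 3 libraries a group left a wide interval, depth and library number limit what could be detected.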
